A study of Mus musculus with 12 samples.

Results

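Tns1, Zbtb16, Ror1, Cacna1c and Slco3a1 are 5 mouse genes whose surroundings held H3K4me1 over long stretches in pancreatic cancer lines labelled KDM6A-WT and little of it in lines labelled KDM6A-KO. Zbtb16 in the male KDM6A-WT line was an exception, with H3K4me1 over 22.6 kb. The 5 genes were picked from these same H3K4me1 lists, for broad coverage in WT and little in KO and with no stated threshold. Their KO and WT H3K4me1 values thus describe the choice and were not tested. Members were all listed regions overlapping 5 fixed windows of the mm9 build: 73930001 to 74200000 on chromosome 1 (Tns1), 48420001 to 48700000 on chromosome 9 (Zbtb16), 99740001 to 100150000 on chromosome 4 (Ror1), 118500001 to 119100000 on chromosome 6 (Cacna1c) and 81400001 to 81870000 on chromosome 7 (Slco3a1). The windows add up to 2030 kb and hold 420 of the 313566 regions in the 11 lists.

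The study profiled histone marks, KDM6A and MLL4 by chromatin immunoprecipitation with sequencing in mouse pancreatic cancer lines that were cultured in F12/DMEM with EGF and left untreated. H3K4me1 was profiled in female KDM6A-KO and KDM6A-WT lines and in male KDM6A-KO and KDM6A-WT lines. KDM6A and MLL4 (antibody field KMT2D) were profiled in the female KDM6A-KO and KDM6A-WT lines, and H3K27ac, H3K4me3 and H3K27me3 in the female KDM6A-WT line. Each group was 1 library, and an input or IgG library of the female WT line had no list used here. The labels describe every line, WT ones included, as derived from a Kdm6a-null tumour, and give neither the age of the animals nor the allele. The KDM6A list of the female line labelled KO held 5961 regions, against 2847 regions for the line labelled WT, so the KDM6A lists do not check the genotype, and KO and WT stand here for lines so labelled. Region lists hold no expression, so the pancreatic origin was not checked against marker genes.

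H3K4me1 is laid down mainly by MLL3 and MLL4 and marks enhancers, both active ones, which also carry H3K27ac, and inactive ones. KDM6A, also known as UTX, is a subunit of the MLL3 and MLL4 complexes and removes methyl groups from H3K27me3, the mark that Polycomb complexes place on silenced genes. H3K4me3 marks promoters. Most H3K4me1 regions are short, and long runs of it often lie within or beside genes that are regulated by cell type.

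The 5 genes have no common pathway. Tns1 encodes tensin 1, which ties integrin adhesions to the actin cytoskeleton, and Zbtb16 encodes PLZF, a BTB zinc-finger transcription factor that recruits corepressors. Of the 3 genes for membrane proteins, Ror1 encodes a receptor tyrosine kinase-like protein that binds WNT5A, Slco3a1 an organic anion transporter, and Cacna1c the pore subunit of the L-type calcium channel Cav1.2. All 5 are long genes. In RefSeq annotation of GRCm38, which is a later build than that of the lists, Tns1 spans 214 kb between Tnp1 and Rufy4, Zbtb16 184 kb between Nnmt and Gm32280, Ror1 349 kb between Pgm1 and Ube2u, Slco3a1 279 kb between St8sia2 and Sv2b, and Cacna1c 610 kb between Ankrd26 and Dcp1b. An annotation of mm9 was not used here, so exons, introns and start sites were not placed on the windows. Gene names below stand for the windows, and a region in a window need not belong to the gene named.

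The promoters at hand, 250 bases before to 50 bases after a start in RefSeq on GRCm38.p6, covered 3 of the 5 genes with 5 promoters. They are shown because promoters rich in CG, those of CpG islands, commonly carry H3K4me3 and are targets of Polycomb where silent. Capitals mark CG, which reads the same on both strands. Among 32851 promoters the median was 7 CG. The Tns1 promoter, chr1:74124499-74124798 on the minus strand, holds 37 CG, a number reached by 5.58% of all promoters.
Tns1: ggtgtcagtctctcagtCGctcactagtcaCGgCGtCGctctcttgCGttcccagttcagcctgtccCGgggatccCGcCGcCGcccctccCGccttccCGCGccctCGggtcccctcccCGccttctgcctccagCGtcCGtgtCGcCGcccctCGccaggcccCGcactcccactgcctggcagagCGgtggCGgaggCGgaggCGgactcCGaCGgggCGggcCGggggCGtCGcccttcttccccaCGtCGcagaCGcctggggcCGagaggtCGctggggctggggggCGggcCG
The Ror1 promoter, chr4:100095541-100095840 on the plus strand, holds 10 CG, a number reached by 43.5% of promoters.
Ror1: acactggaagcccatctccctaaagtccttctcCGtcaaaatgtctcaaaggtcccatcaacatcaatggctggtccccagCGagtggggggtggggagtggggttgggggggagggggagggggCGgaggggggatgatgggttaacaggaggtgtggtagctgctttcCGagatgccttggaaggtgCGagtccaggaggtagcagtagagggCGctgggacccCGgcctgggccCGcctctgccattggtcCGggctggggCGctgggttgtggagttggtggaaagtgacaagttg
The most CG-rich of 3 Cacna1c promoters, chr6:119108446-119108745 on the minus strand, holds 57 CG, a number reached by 0.152% of promoters, whereas the others hold 3 and 7.
Cacna1c: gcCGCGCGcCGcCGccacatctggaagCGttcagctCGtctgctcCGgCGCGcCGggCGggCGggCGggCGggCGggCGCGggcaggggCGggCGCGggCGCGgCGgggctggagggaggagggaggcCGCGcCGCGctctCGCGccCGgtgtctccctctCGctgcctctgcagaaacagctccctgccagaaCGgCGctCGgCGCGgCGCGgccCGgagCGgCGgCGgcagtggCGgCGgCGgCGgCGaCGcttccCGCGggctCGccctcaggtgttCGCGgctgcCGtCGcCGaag
These positions belong to another build than the lists, so whether a listed region covers a promoter was not tested.

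The number in each list was taken as the reads of a region. H3K4me1 lists held 35041 regions and 6639207 reads in female KO, 56076 regions and 9956349 reads in female WT, 49780 regions and 10809880 reads in male KO, and 64247 regions and 14411335 reads in male WT. Reads per kb over a whole list were close within a sex, at 43.2 in female KO and 43.5 in female WT, and at 55.0 in male KO and 55.6 in male WT. Mapped reads per library were not given, so depth is unknown, and a stretch without a listed region may hold reads below the threshold of the authors. The listed H3K4me1 region with the fewest reads had 15 in female KO, 15 in female WT, 19 in male KO and 25 in male WT. A mark absent from part of the cells and a weaker mark in all cells cannot be told apart in bulk chromatin.

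Over the 5 windows, H3K4me1 covered 30.4 kb (1.5%) in female KO, against 992 kb (48.9%) in female WT. In the male lines it covered 34.0 kb (1.67%) in KO, against 707 kb (34.8%) in WT. Over the whole span of the lists the mark covered 5.82% in female KO and 8.67% in female WT, and 7.45% in male KO and 9.82% in male WT. Summed over the windows, coverage in both KO lines was thus below that of the span, and in both WT lines above it, as the choice of windows required. Single windows went the other way: Tns1 had 6.96% in female KO, and Zbtb16 had 8.07% in male WT. Of the female WT regions in the windows, 125 of 134 had no overlapping region in female KO, where the whole female WT list gave 51.1%. Of the male WT regions, 109 of 121 had none in male KO, where the whole list gave 42.0%. In the other direction, 2 of 9 regions in female KO lacked a female WT counterpart, against 23.4% of that list, and 2 of 14 in male KO lacked a male WT counterpart, against 25.4%.

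**Figure D1:**
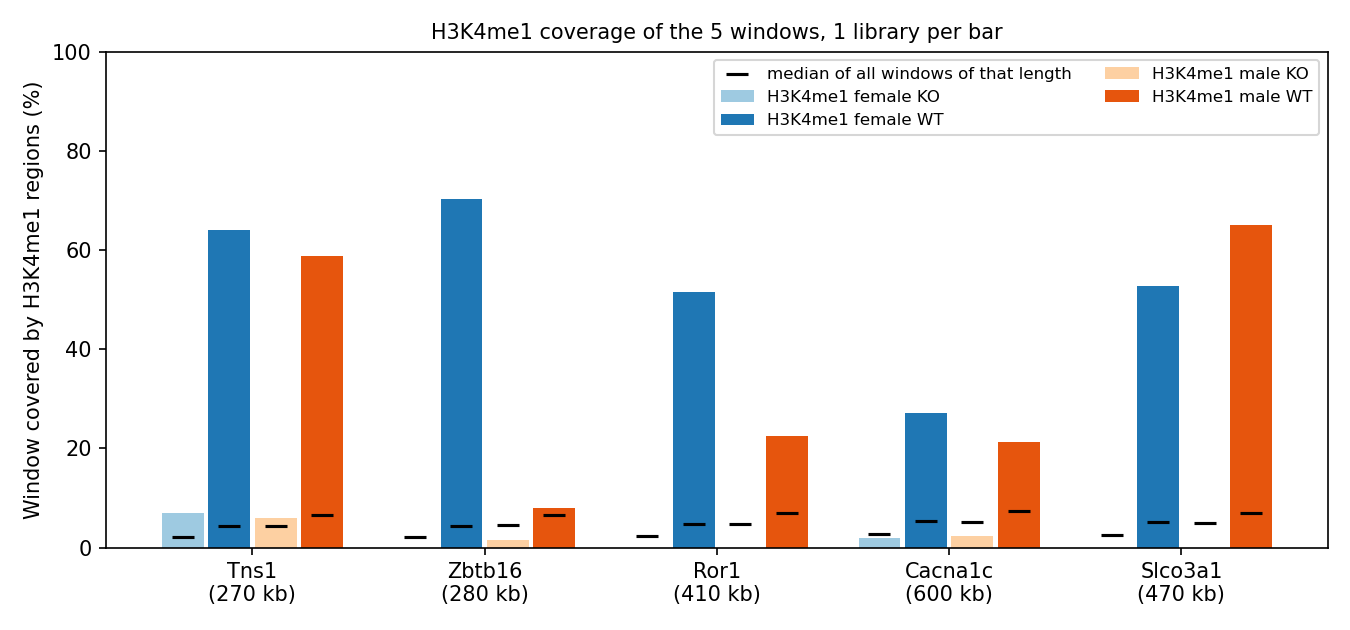
Share of each window (%, vertical axis) covered by listed H3K4me1 regions in female KO, female WT, male KO and male WT, with the median over windows of the same length along the genome marked. Bars of the KO lines reach 6.96% at most, in Tns1, and WT bars reach 70.4% in Zbtb16 of the female line but 8.07% in Zbtb16 of the male line.

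Tns1 was the window where KO kept the most H3K4me1. The mark covered 18.8 kb in 4 regions of female KO (1431 reads, 62.8 reads per kb), against 173 kb in 15 regions of female WT (12073 reads, 69.5 reads per kb). Male KO held 16.2 kb in 6 regions (704 reads, 43.5 reads per kb), against 159 kb in 19 regions of male WT (11007 reads, 69.1 reads per kb). The exact 95% Poisson intervals of these sums, which here and elsewhere cover counting error only, ran in the female lines from 1358 to 1507 reads in KO and from 11859 to 12290.3 reads in WT. The body of the domain was a single WT region in each sex. In female WT it was 84.8 kb long, from 74033601 to 74118400, with 7489 reads, the 4th of its list by reads and the 9th by length. In male WT it was 51.2 kb long, from 74068601 to 74119800, with 3727 reads, 69th by reads. Neither was overlapped by a KO region of its own sex or of the other. The KO regions lay to the sides of it. In female KO the strongest had 1010 reads, from 261.0 kb to 274.0 kb after the start of the window and so across its right edge, and the next had 302 reads, from 236.8 kb to 243.0 kb. In male KO the strongest 2 lay at the same places, with 265 reads from 263.8 kb to 268.4 kb and 107 reads from 240.6 kb to 243.4 kb. Of the WT regions, 9 of 15 in the female line and 13 of 19 in the male line had no KO overlap, beside 51.1% and 42.0% of the whole lists.

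Zbtb16 had the highest share covered by H3K4me1 of the 5 windows in female WT and the lowest in male WT. Female KO held no listed region in the window, against 197 kb in 8 regions of female WT (11435 reads, 58.0 reads per kb). Male KO held 4.2 kb in 2 regions (151 reads, 36.0 reads per kb), against 22.6 kb in 7 regions of male WT (1011 reads, 44.7 reads per kb). A pair of adjacent female WT regions made up most of the domain. The first was 106.8 kb long, from 48469201 to 48576000, with 6782 reads, the 7th of the list by reads and the 4th by length, and the second was 66.8 kb long, from 48576401 to 48643200, with 3483 reads. The longest male WT region was 10.2 kb, from 48539601 to 48549800, with 589 reads. All of the male WT length lay inside female WT H3K4me1, which it covered to 11.5%. Male WT coverage, 8.07% of the window, exceeded that of 54.6% of windows of the same length. Broad H3K4me1 in WT therefore described Zbtb16 in the female line only. The 2 male KO regions had 83 reads, from 126.8 kb to 129.0 kb after the window start, and 68 reads, from 223.2 kb to 225.2 kb.

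**Figure D2:**
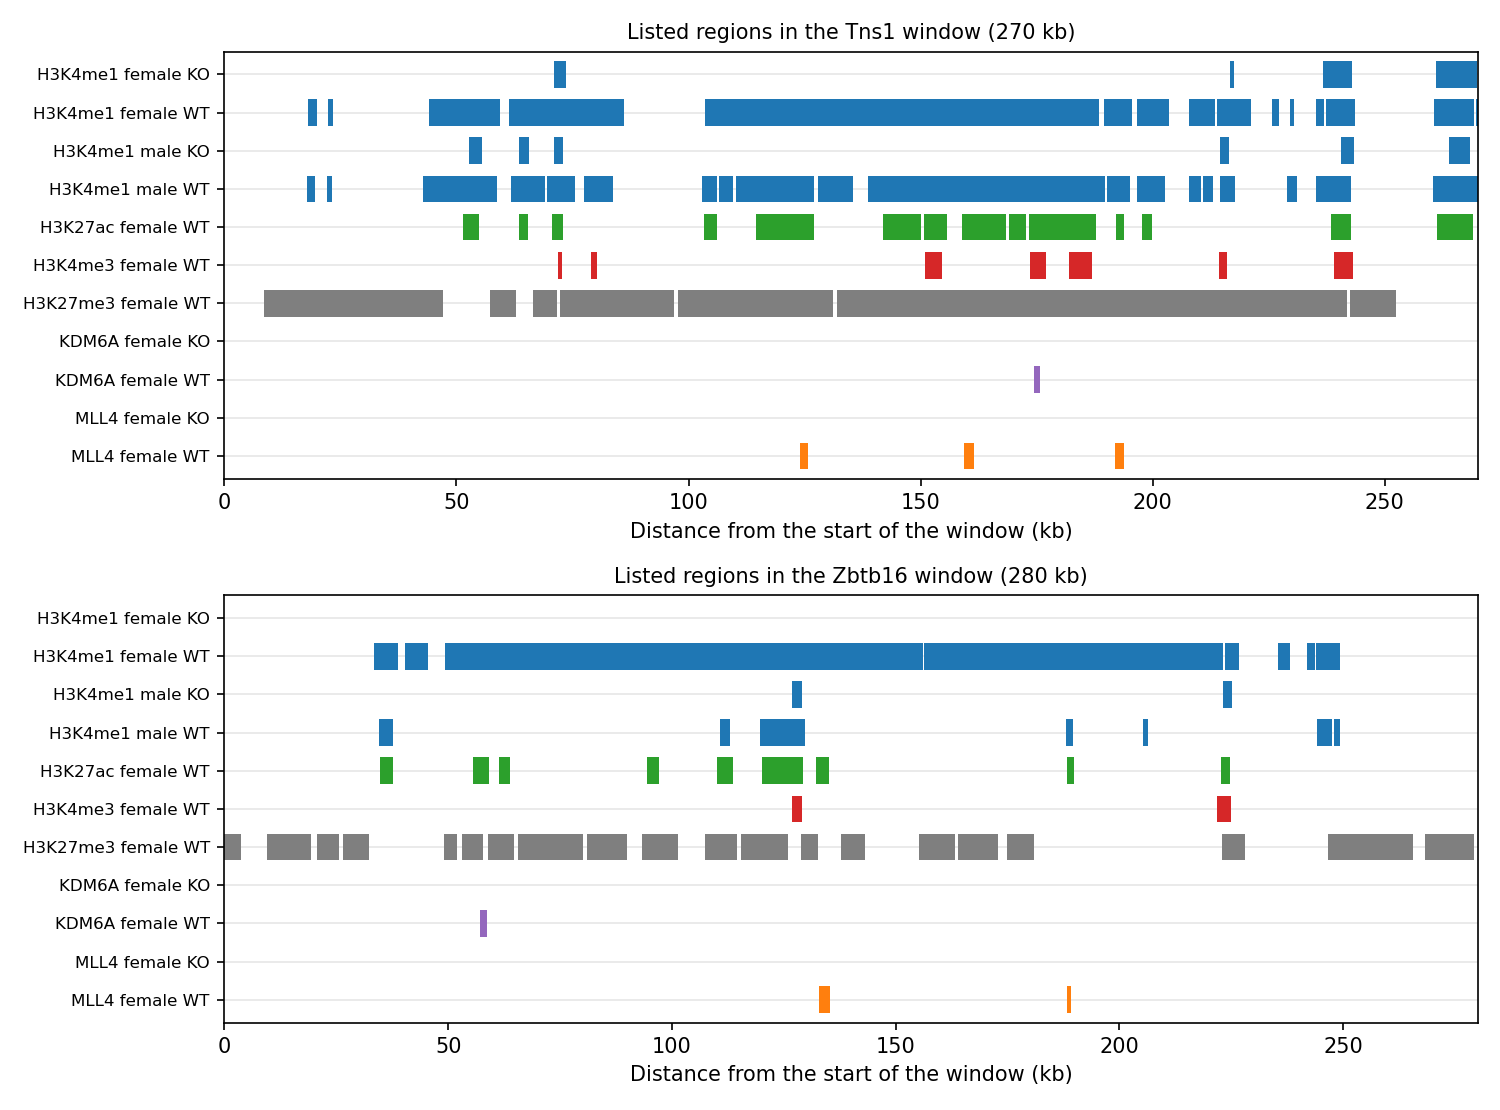
Maps of the Tns1 and Zbtb16 windows, with distance from the window start (kb) on the horizontal axis and a track for each of the 11 lists, KO above WT for each antibody; bars are listed regions. In Tns1 a run of H3K4me1 fills the middle of both WT tracks and KO bars stand at the sides, and in Zbtb16 the run is in female WT, with 2 short bars in male KO and none in female KO.

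Ror1 had no listed H3K4me1 in either KO line, against 40 regions in female WT and 25 regions in male WT. The 40 female WT regions covered 211 kb (51.5%) with 8854 reads at 41.9 reads per kb. The 25 male WT regions covered 92.6 kb (22.6%) with 4486 reads at 48.4 reads per kb. Unlike Tns1 and Zbtb16, the domain was a chain of short regions with a median length of 3.9 kb in female WT and 3.0 kb in male WT. The longest was 22.2 kb in female WT, from 99914601 to 99936800, with 1074 reads, and 7.8 kb in male WT, from 99902001 to 99909800, with 360 reads. Of the male WT length, 92.2% lay inside female WT H3K4me1, and it covered 40.4% of the female length. Male WT thus held fewer and shorter regions than female WT, at nearly all places within the female chain.

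Slco3a1 was the other window without listed H3K4me1 in either KO line, and the only one of the 5 with more of it in male WT than in female WT. Female WT held 34 regions over 248 kb (52.7%) with 12224 reads at 49.3 reads per kb. Male WT held 29 regions over 305 kb (65.0%) with 20730 reads at 67.9 reads per kb. The longest female WT region was 26.6 kb, from 81661001 to 81687600, with 1320 reads, and the longest male WT region was 41.0 kb, from 81549801 to 81590800, with 2686 reads. The sexes shared 227 kb, which is 91.7% of the female WT length and 74.4% of the male WT length. No KO region was listed near this window either. The nearest lay 626 kb before and 668 kb after it in female KO, and 626 kb before and 652 kb after it in male KO.

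**Figure D3:**
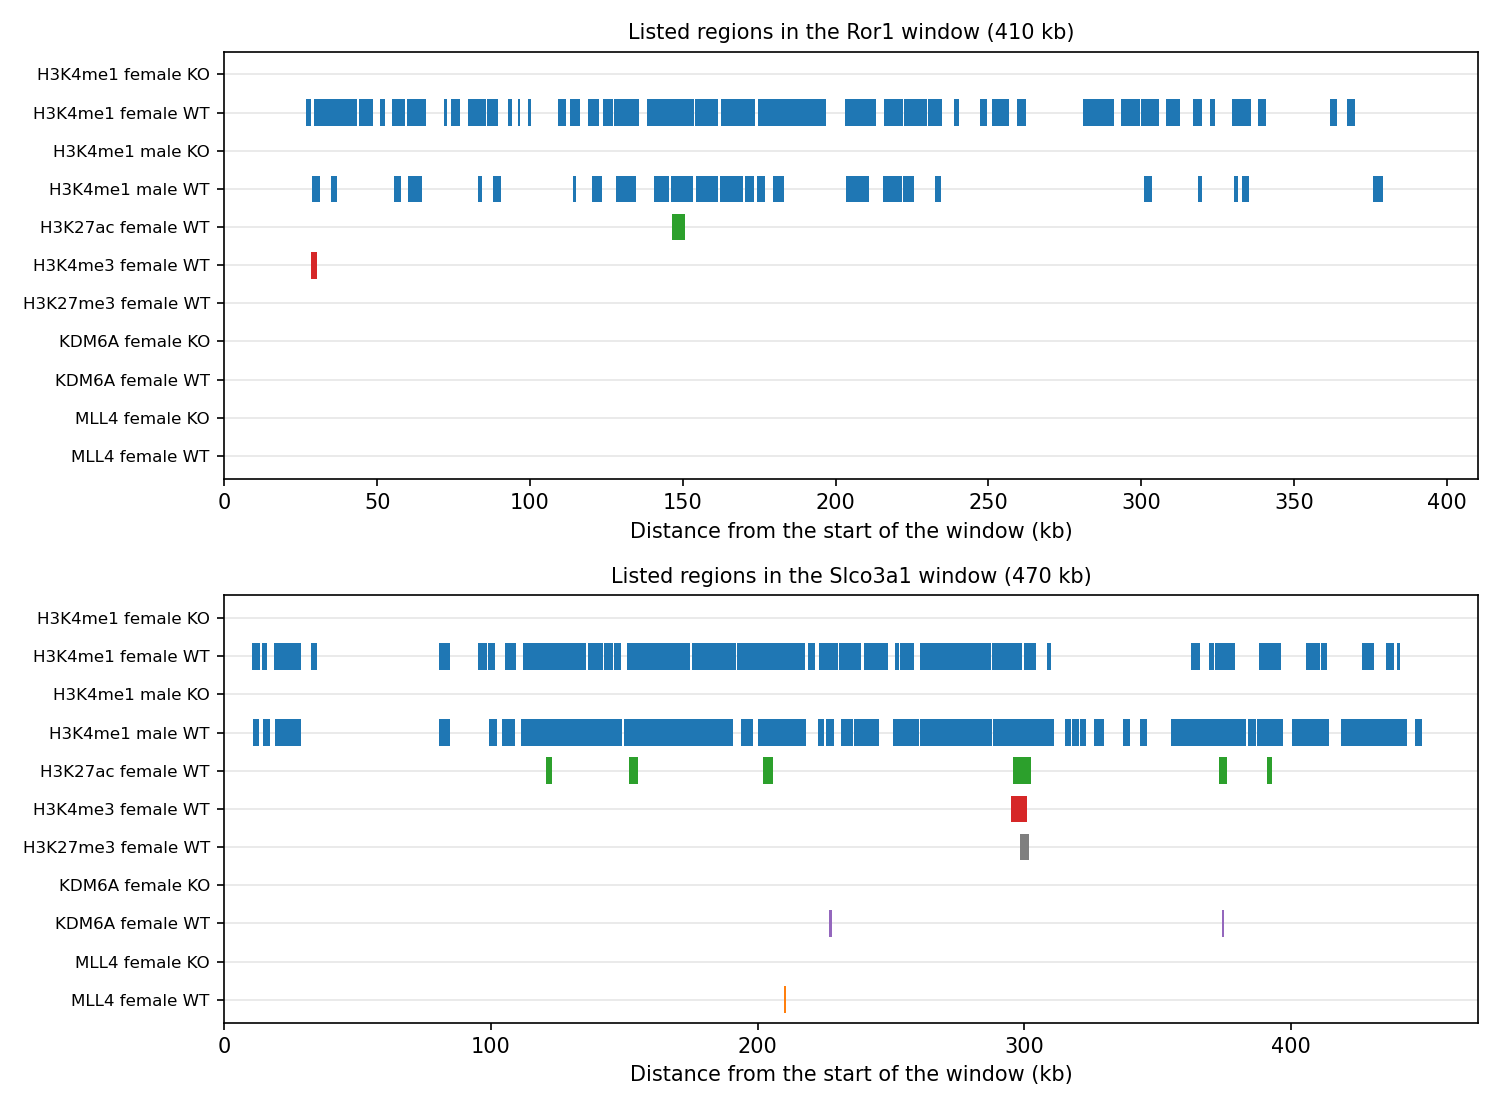
Maps of the Ror1 and Slco3a1 windows, with distance from the window start (kb) on the horizontal axis and a track for each of the 11 lists; bars are listed regions. The H3K4me1 tracks of both KO lines are empty in both windows, and the WT tracks show chains of regions, sparser in male WT than in female WT for Ror1.

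Cacna1c, the longest window at 600 kb, had the lowest share covered in female WT. Female KO held 11.6 kb in 5 regions (410 reads, 35.3 reads per kb), against 163 kb in 37 regions of female WT (6765 reads, 41.6 reads per kb). Male KO held 13.6 kb in 6 regions (542 reads, 39.9 reads per kb), against 128 kb in 41 regions of male WT (6568 reads, 51.2 reads per kb). WT regions were dense in the right part of the window, and the longest began within 0.2 kb of each other in the sexes. It was 15.2 kb in female WT, from 118902401 to 118917600, with 1048 reads, and 13.4 kb in male WT, from 118902601 to 118916000, with 1030 reads. All 5 regions of female KO lay between 9.4 kb and 80.6 kb after the window start, outside that dense part. The strongest had 199 reads in female KO, from 9.4 kb to 14.6 kb, and 208 reads in male KO, from 9.6 kb to 14.2 kb, and both overlapped WT H3K4me1 of both sexes. The next by reads had 67 reads in female KO, from 71.6 kb to 73.6 kb, and 94 reads in male KO, from 557.2 kb to 559.6 kb. Of the WT regions in Cacna1c, 34 of 37 in the female line and 36 of 41 in the male line had no KO overlap, beside the same 51.1% and 42.0% of the whole lists.

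**Figure D4:**
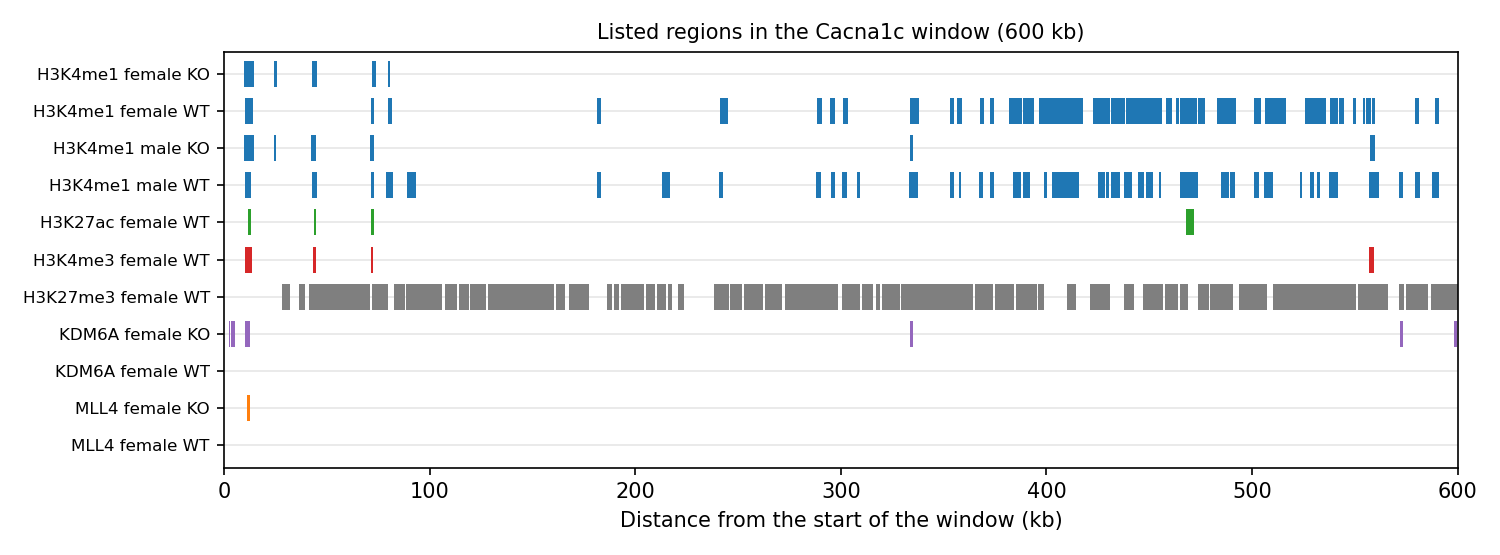
Map of the Cacna1c window, with distance from the window start (kb) on the horizontal axis and a track for each of the 11 lists; bars are listed regions. H3K4me1 of female KO is limited to 5 bars within the first 80.6 kb, WT H3K4me1 is densest in the right part of the window, and H3K27me3 bars fill most of the window.

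The domains were long single regions, chains of shorter ones, or both. Regions of 40 kb or more numbered 117 in the female WT list and 71 in the male WT list, and 3 of the female ones (1 in Tns1, 2 in Zbtb16) and 2 of the male ones (1 in Tns1, 1 in Slco3a1) lay in the windows. None of these 5 was overlapped by a KO region of its own sex. Over the whole lists, 6 of 117 such regions in female WT (5.13%) and 3 of 71 in male WT (4.23%) had no overlap in KO. These counts include the 5 regions of the windows. The windows were picked for little H3K4me1 in KO, so nothing is read from this contrast. Joining regions less than 12.5 kb apart turned the chains into longer domains. The longest per window in female WT was 140 kb for Tns1, 216 kb for Zbtb16, 235 kb for Ror1, 207 kb for Cacna1c and 230 kb for Slco3a1, which ranked 175th, 43rd, 27th, 54th and 30th by length of 21690 domains. In male WT the longest joined domains were 140 kb for Tns1, 19.0 kb for Zbtb16, 69.2 kb for Ror1, 157 kb for Cacna1c and 350 kb for Slco3a1, the last ranking 4th of 26394. KO regions within these joined domains numbered 2 in Tns1 for each sex, 1 in Zbtb16 for the male lines and 0 elsewhere.

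Set beside windows of the same length along the genome, female WT coverage was above that of 99.7% of windows for Tns1, 99.9% for Zbtb16, 99.4% for Ror1, 92.4% for Cacna1c and 99.8% for Slco3a1. In male WT the shares were 99.7% for Tns1, 54.6% for Zbtb16, 84.6% for Ror1, 84.5% for Cacna1c and 99.98% for Slco3a1. Coverage in female KO was above that of 68.9% of windows for Tns1 and 44.4% for Cacna1c, and in male KO above that of 55.7% for Tns1, 30.1% for Zbtb16 and 32.9% for Cacna1c. Windows of these lengths without any female KO H3K4me1 were common, since 65.8% of 280 kb windows and 72.9% of 470 kb windows held a region. Those without male KO H3K4me1 were less common, since 89.0% of 410 kb windows and 90.2% of 470 kb windows held a region. The difference in coverage, KO minus WT, was as low or lower in 8 of 8649 windows for Tns1, 2 of 8357 for Zbtb16, 4 of 5893 for Ror1, 42 of 4119 for Cacna1c and 1 of 5177 for Slco3a1 in the female lines. In the male lines such windows numbered 3, 1746, 77, 60 and 0 in the same order of genes. These ranks describe how far the choice reached.

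H3K27ac and H3K4me3 were profiled in the female WT line and were not themselves used in the choice. Their share of WT H3K4me1 over all 5 windows was below that of the lists. Of the female WT H3K4me1 length, 15.2% lay on either mark, against 41.8% of the whole female WT list. For male WT H3K4me1, set against the same female WT marks, the share was 19.3%, against 39.5% of that list. The genes differed in this. The share in female WT was 47.9% in Tns1 and 15.9% in Zbtb16, and 2.46% in Ror1, 8.23% in Slco3a1 and 6.51% in Cacna1c. In male WT it was 52.0% in Tns1 and 68.1% in Zbtb16, both above the male list, and 6.05% in Ror1, 6.88% in Slco3a1 and 9.20% in Cacna1c. The choice bore on these shares all the same, since it took WT H3K4me1 with little counterpart in KO. Over the whole female WT list, female KO covered 77.4% of the H3K4me1 length with H3K27ac alone. It covered 25.6% of the length with neither H3K27ac nor H3K27me3. With 1 library per mark no test of the shares was possible.

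H3K27ac covered 79.8 kb of Tns1 in 15 regions, 30.8 kb of Zbtb16 in 9, 4.2 kb of Ror1 in 1, 20.2 kb of Slco3a1 in 6 and 7.8 kb of Cacna1c in 4. Tns1 was above 98.3% of windows of its length in H3K27ac coverage, whereas Ror1 was above 40.9% and Cacna1c above 41.1%. The 2 leading H3K27ac regions of Tns1 had 559 reads over 7.8 kb, at the KO-retained H3K4me1 near the right edge, and 552 reads over 14.4 kb, from 173.4 kb to 187.8 kb, inside the long WT H3K4me1 region. In Zbtb16 the leading ones had 288 reads, from 120.2 kb to 129.2 kb, and 124 reads, from 132.2 kb to 135.2 kb. The single H3K27ac region of Ror1 had 147 reads, from 146.4 kb to 150.6 kb. In Slco3a1 the leading ones had 262 reads, from 295.8 kb to 302.4 kb, and 124 reads, from 202.0 kb to 205.6 kb. In Cacna1c they had 133 reads, from 467.8 kb to 471.6 kb, and 110 reads, from 11.4 kb to 13.0 kb. Across the windows, 34 of 35 H3K27ac regions overlapped female WT H3K4me1 (84.2% of the list), and 7 of 35 overlapped female KO H3K4me1 (75.7% of the list). Overlap with H3K4me1 of WT and of KO was set in large part by the choice of windows, for this mark and for the others.

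H3K4me3 was listed in 15 regions, 7 in Tns1, 2 in Zbtb16, 1 in Ror1, 1 in Slco3a1 and 4 in Cacna1c. The region of Slco3a1 had 1108 reads, from 295.0 kb to 301.0 kb, and that of Ror1 262 reads, from 28.2 kb to 30.2 kb. The leading ones of Cacna1c had 1066 reads, from 10 kb to 13.6 kb, and 378 reads, from 557.0 kb to 559.4 kb. Those of Tns1 had 948 reads, from 239.0 kb to 243.2 kb, and 623 reads, from 182.0 kb to 187.0 kb. Those of Zbtb16 had 357 reads, from 221.8 kb to 225.0 kb, and 74 reads, from 126.8 kb to 129.0 kb, so the H3K4me3 of these windows ranged widely in strength. Female WT H3K4me1 overlapped 14 of the 15, against 81.1% of the list. Female KO H3K4me1 overlapped 5 of 15, against 77.8% of the list, and male KO H3K4me1 9 of 15, against 90.8%. As for H3K27ac, the choice of windows bore on these overlaps.

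H3K27me3 split the genes into 2 kinds. It covered 227 kb (83.9%) of Tns1 in 7 regions, 155 kb (55.4%) of Zbtb16 in 20 regions and 458 kb (76.4%) of Cacna1c in 47 regions, but 3.4 kb of Slco3a1 in 1 region, and no listed region lay in Ror1. Coverage in Cacna1c was above that of 99.7% of windows of its length, in Tns1 above 99.6% and in Zbtb16 above 95.6%. The mark was not limited to the windows. In the 500 kb before and after, it covered 48.4% and 42.7% for Zbtb16 and 50.4% and 43.6% for Cacna1c. For Tns1 these flanks had 34.6% and 15.8%, for Slco3a1 26.6% and 23.8%, and for Ror1 0.6% and none. The leading H3K27me3 region of Tns1, with 3663 reads over 109.8 kb from 74062001 to 74171800, was the 30th of its list by reads and overlapped the long WT H3K4me1 region of both sexes. The next of Tns1 had 1003 reads over 38.6 kb, from 73938601 to 73977200. In Cacna1c the leading ones had 1014 reads over 40.6 kb, from 119010001 to 119050600, and 963 reads over 36.0 kb, from 119087001 to 119123000 and so across the right edge. In Zbtb16 they had 421 reads over 19.0 kb, from 48666601 to 48685600, and 278 reads over 14.6 kb, from 48485601 to 48500200. The 1 region of Slco3a1, with 88 reads, sat on the H3K4me3 region there.

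H3K27ac and H3K27me3 were then combined on the female WT H3K4me1 length. Ror1 and Slco3a1 carried neither mark on 98.0% and 92.1% of that length. In Cacna1c, 72.2% carried H3K27me3 alone. In Tns1, 48.1% carried H3K27me3 alone and 37.3% both marks, and in Zbtb16 41.3% carried H3K27me3 alone and 43.2% neither. Both marks on the same stretch made up 8.95% of the length over the 5 windows and 0.965% of the whole female WT list. Of the 88.8 kb with both marks in the windows, 64.6 kb lay in Tns1. H3K27me3 alone made up 28.5% in the windows and 4.97% of the list. The choice of windows bore on these shares too. Over the whole female WT list, female KO covered 77.4% of the length with H3K27ac alone and 18.9% with H3K27me3 alone. The marks came from separate libraries of 1 line, so overlap in the same cells or on the same allele was not measured.

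**Figure D5:**
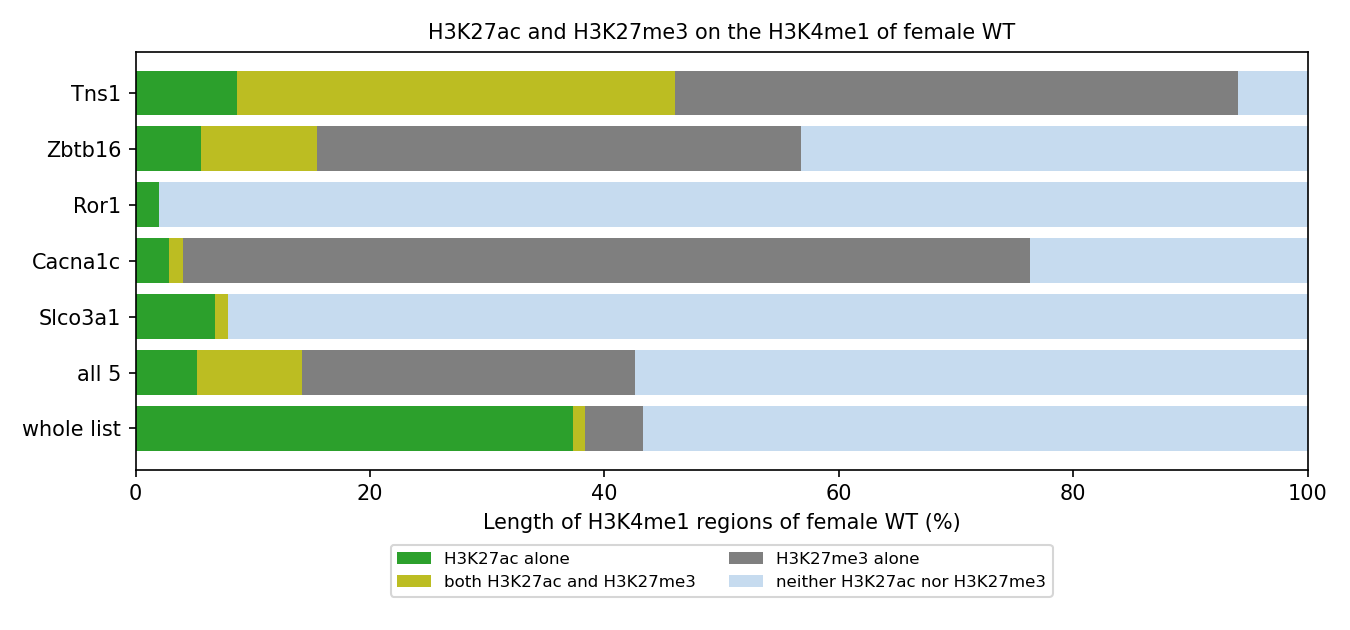
Share (%) of female WT H3K4me1 length with neither H3K27ac nor H3K27me3, H3K27ac alone, H3K27me3 alone or both, for each of the 5 windows, for all 5 together and for the whole list. Ror1 and Slco3a1 are nearly all without either mark (98.0% and 92.1%), H3K27me3 alone leads in Cacna1c (72.2%), and Tns1 has the most with both (37.3%).

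The H3K4me1 listed in the KO lines within the windows lay mostly on active marks of female WT, as did the whole KO lists. Not all of it was kept from WT. On WT H3K4me1 of the same sex lay 78.3% of the female KO length and 82.4% of the male KO length. Of the KO H3K4me1 length in the windows, 68.4% in female KO and 80.0% in male KO lay on H3K27ac or H3K4me3, against 58.6% and 53.1% of the whole KO lists. By gene, the female KO share was 77.7% in Tns1 and 53.4% in Cacna1c, the latter below the list. The male KO share was 91.4% in Tns1, 95.2% in Zbtb16 and 61.8% in Cacna1c. H3K4me3 regions were overlapped by 6 of 9 female KO regions (58.8% of the list) and by 9 of 14 male KO regions (49.0% of the list). In Zbtb16, both male KO regions lay on its 2 H3K4me3 regions. Of the female WT H3K4me1 with H3K27ac alone, 22.1% of the length was also listed in female KO, against 77.4% over the whole list. With neither mark, 0.668% was, against 25.6%, with H3K27me3 alone 1.06%, against 18.9%, and with both marks 6.31%, against 59.3%. Under each combination, female KO covered less in the windows than over the list, and the windows had been picked from low KO coverage. The H3K4me1 of the 2 KO lines lay partly on the same stretches. The lines shared 17.2 kb, which is 56.6% of the female KO length and 50.6% of the male KO length. Over the whole KO lists these shares were 74.2% and 57.9%. Of the female KO regions, 7 of 9 overlapped a male KO region, against 84.0% of the list.

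KDM6A regions of female WT numbered 4 in the windows and MLL4 regions 6, all short and with few reads. For KDM6A these were 1 in Tns1 with 41 reads (95% interval 29.4 to 55.6), from 174.4 kb to 175.8 kb, 1 in Zbtb16 with 42 reads, from 57.2 kb to 58.6 kb, and 2 in Slco3a1 with 39 reads, from 226.6 kb to 228.0 kb, and 44 reads, from 374.0 kb to 374.8 kb. The median region of that list had 44 reads. For MLL4, Tns1 held 3 regions with 55, 69 and 47 reads, Zbtb16 held 2 with 79 reads, from 132.8 kb to 135.4 kb, and 33 reads, from 188.2 kb to 189.2 kb, and Slco3a1 held 1 with 35 reads, from 209.8 kb to 210.8 kb. Those of Tns1 lay from 124.0 kb to 125.8 kb, from 159.4 kb to 161.6 kb and from 192.0 kb to 193.8 kb, the first 2 of them inside the 84.8 kb H3K4me1 region. Ror1 and Cacna1c held neither KDM6A nor MLL4 of female WT. Most windows of those lengths held none either. A KDM6A region of female WT was present in 26.6% of 410 kb windows and 33.6% of 600 kb windows. An MLL4 region was present in 21.9% and 27.8%.

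All 4 KDM6A regions and all 6 MLL4 regions of female WT lay on female WT H3K4me1, against 61.5% and 69.9% of those lists. None lay on H3K4me1 of either KO line, where 38.6% of the KDM6A list and 51.5% of the MLL4 list lay on female KO H3K4me1. Both counts go with the choice of windows, which had much H3K4me1 in WT and little in KO, and nothing is read from them. H3K27ac was overlapped by 3 of 4 KDM6A regions (40.1% of the list) and by 5 of 6 MLL4 regions (56.0% of the list). H3K4me3 was overlapped by 1 of 4 KDM6A regions and 0 of 6 MLL4 regions, against 28.9% and 44.7%. No KDM6A region coincided with an MLL4 region of female WT, where 13.4% of the whole KDM6A list and 17.7% of the whole MLL4 list did. All 4 KDM6A regions lacked an overlapping region in the KDM6A list of KO, as did 91.0% of the whole WT list. All 6 MLL4 regions lacked one in the MLL4 list of KO, as did 71.7% of the whole WT list. A share this near the list, over 4 or 6 regions, says nothing particular of the windows. MLL4 of female WT covered 2.15% of Tns1, above 98.8% of windows of its length, and 1.29% of Zbtb16, above 97.0%, and most windows of those lengths held none (a region was present in 16.6% and 17.1%). In Slco3a1, MLL4 covered 0.213%, above 77.2% of windows. KDM6A of female WT covered 0.519% of Tns1, above 86.7% of windows, and a region was present in 20.2%. It covered 0.5% of Zbtb16, above 86.4% of windows, and 0.468% of Slco3a1, above 88.8%. The choice of windows, with much WT H3K4me1, bore on these ranks too. Of the female WT H3K4me1 length, MLL4 covered 1.05% in the 5 windows and 1.05% over the whole list. KDM6A covered 0.504% of it in the windows, against 1.09% over the list.

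In female KO, all 6 KDM6A regions and the single MLL4 region of the windows lay in Cacna1c. These counts hung on the window edges: windows narrowed by 10% on each side held 1 KDM6A and 0 MLL4 regions of KO, and windows widened by 50 kb on each side held 7 and 5. The leading KDM6A regions had 67 reads, from 10 kb to 12.6 kb, and 50 reads, from 3.2 kb to 5.0 kb. The MLL4 region had 44 reads, from 11.2 kb to 12.6 kb, inside the first of these. It lay on the H3K4me1 kept in both KO lines and on the H3K4me3 and H3K27ac of female WT there. Whether these regions near the left edge of the window belong to Cacna1c or to a neighbouring gene was not tested. These KO lists are uneven over chromosomes: on chromosome 6, 73.1% of 600 kb windows held a KDM6A region of KO, against 43.9% over the genome, and 90.9% held an MLL4 region of KO, against 60.8%. KO coverage of Cacna1c exceeded that of 94.0% of windows for KDM6A, but of 76.4% on chromosome 6, and for MLL4 that of 49.6%, but of 18.2% on chromosome 6. Tns1, on chromosome 1, held neither in KO within the window, although 65.7% of windows of its length there held a KDM6A region of KO and 79.6% an MLL4 region. The female KO H3K4me1 region that crosses the right edge of Tns1 did overlap an MLL4 region of KO, beyond the window. Whether this unevenness bears on the Cacna1c regions was not tested.

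Outside the windows, the contrast between KO and WT depended on the gene. In the 500 kb after Tns1, H3K4me1 covered 22.3% in female KO against 31.3% in female WT, and 17.1% in male KO against 33.0% in male WT, with 27 MLL4 regions of KO and 1 of WT. In the 500 kb before Tns1 it covered 0% in both KO lines, against 12.3% in female WT and 12.1% in male WT. After Cacna1c, coverage was 10.04% in female KO against 12.2% in female WT, and 11.4% in male KO against 17.1% in male WT. Before Cacna1c it was higher in female KO, at 8.28% against 4.92% in female WT, and lower in male KO, at 6.32% against 13.3% in male WT. The flanks of Zbtb16 had nearly equal, low coverage, at 1.76% before and 2% after in female KO, against 2.16% and 1.48% in female WT. The flanks of Ror1 had 0.96% before and none after in female KO, against 9.84% and 15.6% in female WT. Those of Slco3a1 had none in female KO, against 0.28% on each side in female WT, while male WT had 3.04% before and 12.6% after.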

How the data were processed

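Chromatin immunoprecipitation libraries of 12 samples, 1 per group, were available, 11 of them with a region list. The submitters' processing notes name the tools Bowtie 1.1.2 and SICER 1 and the build mm9, with no role stated. The deposited lists give chromosome, start, end and a whole number per region, taken from its values as the count of reads; no header or label names it. For threshold, control library and mapped reads, values are not given in the sources used here. All region borders lay on 200 bp steps. The 5 genes, the windows and the alternatives were chosen with earlier results of these data known. All 5 genes are described. Named regions are the longest H3K4me1 region per window and list and, per window, the 2 with the most reads for other marks and, where a window holds more than 3, for KO H3K4me1, KDM6A and MLL4 (otherwise all of these); further regions, among them the second long Zbtb16 region, were named after their values were seen. Coverage was counted in 200 bp bins clipped to the window, whereas region numbers and reads count whole regions that cross an edge. A region was shared when at least 1 bp overlapped. Windows of the same length were tiled along each chromosome and kept where any list had a region. Read counts carry exact Poisson 95% intervals. With 1 library per group no test was made. Computation used Python 3.11.15, numpy 2.4.6, pandas 2.3.3, scipy 1.17.1 and matplotlib 3.10.9, and the overlap and coverage steps were tested on simulated data. Relatives of the 5 genes were not located, because no mm9 annotation was used here.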

Additional observations from a re-analysis of the deposited data

How the results depend on the processing

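With 1 library per group there is no replicate error, no library could be left out, and a region list shows nothing below its threshold. Every title carries replicate number 1, so replicate numbers gave no pairs within a sex. No paired test over the sexes was made, because the choice of windows had used the KO and WT H3K4me1 contrast. KO and WT were set side by side within each sex, and no model over the sexes was fitted. H3K4me1 coverage was lower in KO than in WT for all 5 genes in both sexes under all 5 alternatives. It fell by 3.64 points (Zbtb16, male lines) at the least and fell by 87.9 points (Zbtb16, female lines) at the most. The windows were picked for this contrast, so the kept direction adds no support to it. Of 57 alternatives for the main values, 29 stayed within an interval, used for shares, or within 1.5-fold, used for region numbers. The interval of a share was a binomial one over 200 bp bins, and not the Poisson interval of reads. It took bins as independent, which bins of the same region are not. The female KO coverage, for example, came from 9 regions. The interval is thus no measure of error, and the tally of 29 only describes the size of the shifts. Keeping the upper 50% of each list by reads gave coverage of 1.005% in female KO, 44.0% in female WT, 0.453% in male KO and 28.6% in male WT. It gave active marks on 79.4% of female KO, 9.998% of female WT, 89.1% of male KO and 14.6% of male WT H3K4me1, H3K27me3 on 32.6% of female WT H3K4me1, and 2 KDM6A regions of KO and 0 of WT. Lists of equal number gave WT coverage of 46.0% in the female and 32.8% in the male line, 2 KDM6A regions of KO and 0 MLL4 regions of KO. Joining regions within 5 kb gave WT coverage of 57.5% in the female and 41.9% in the male line, and active marks on 17.8% of male WT H3K4me1. Windows widened by 50 kb on each side gave coverage of 1.88% in female KO, 40.9% in female WT and 29.8% in male WT, and 5 MLL4 regions of KO. Windows narrowed by 10% on each side gave 0.788% in female KO, 56.7% in female WT, 1.16% in male KO and 38.8% in male WT, 1 KDM6A region of KO and 0 MLL4 regions of KO. The cause of these shifts was not tested. Requiring 50% of a region to be covered left 128 female and 117 male WT regions without KO overlap. Cut into 100 kb pieces, the Cacna1c window had a median female WT coverage above that of 79.3% of such pieces along the genome.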
